A study of Vitis vinifera with 12 samples.

Results

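Flavonoid 3'-hydroxylases and flavonoid 3'5'-hydroxylases are cytochrome P450 enzymes that add hydroxyl groups to the B ring of flavonoids. The 3'-hydroxylase leads to the cyanidin and quercetin type of compound, and the 3'5'-hydroxylase to the delphinidin and myricetin type. In grape berries the balance between both enzymes is known for its bearing on the hue of skin anthocyanins in coloured cultivars and on the subunits of skin and seed tannins. The genes described here are 10 IDs of the grapevine annotation, listed as 2 flavonoid 3'-hydroxylases (VIT_17s0000g07200 and VIT_17s0000g07210) and 8 flavonoid 3'5'-hydroxylases of a tandem array (VIT_06s0009g02810 to VIT_06s0009g02970). They were chosen by ID, not by a rule on their values, although earlier results of these data were known at the time. The class of each ID comes from that list, since gene names are absent from the deposited table. Of the 10 IDs, 9 were present among the 22580 IDs of the table, namely 1 3'-hydroxylase and all 8 3'5'-hydroxylases. VIT_17s0000g07200 was not analysed here.

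The values come from RNA sequencing of fruit of the Vitis vinifera cultivar Victoria, a white table grape, collected 40, 50, 60 and 80 days after full bloom; each age has libraries a, b and c, which makes 12 in all. The labels name no treatment, no mutation and no separate tissue of the berry, so skin, flesh and seed were not told apart. Per the labels' protocols, biological replicates were extracted on their own and then combined, so libraries of 1 age may share a pool, and the spread behind each p-value may be technical. Values are FPKM (fragments per kilobase of transcript per 1000000 fragments), which are per length and can be compared between genes. Reads shared between similar genes limit such a comparison. Between 17710 and 18359 IDs were listed above 0 in a library, and the absolute depth is unknown.

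The 2 classes lay far apart at every age. The 3'-hydroxylase VIT_17s0000g07210 was the only member with a substantial level, between 17.7 and 32.1 FPKM in the 12 libraries with a median of 28.3. None of the 8 3'5'-hydroxylases reached 1 FPKM in any library, and their highest single value was 0.556 FPKM. The lowest value of the 3'-hydroxylase was thus 31.8 times the highest value of any 3'5'-hydroxylase. How reads shared between members of the array were counted is not known, so the array may be listed too low. Of the 96 values of the array (8 IDs in 12 libraries), 84 were listed at 0.

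VIT_17s0000g07210 stood above the middle of the tested genes throughout. In each library between 58.3% and 73.1% of the 14743 tested genes (at least 1 FPKM in at least 3 libraries) had a lower FPKM. At 40 days its FPKM was 30.8, 29.7 and 27.5 in libraries a, b and c (mean 29.3 ± 1.63, SD, n = 3). At 50 days it was 19.2, 24.3 and 17.7 FPKM (20.4 ± 3.47). All 3 values at 50 days were below all 3 at 40 days. At 60 days it was 23.1, 32.1 and 29.0 FPKM (28.1 ± 4.61), where library a lay within the range of the 50-day libraries and the others within or above that of the 40-day libraries. At 80 days it was 29.2, 31.8 and 25.6 FPKM (28.9 ± 3.11), overlapping the values of 40 and of 60 days and above all those of 50 days. On the deposited scaling the means ranked 40, 80, 60 and 50 days from high to low, and the first 3 of these ages differed by less than the spread of their libraries. With every library scaled to a sum of 1000000 the means were 26.3 ± 3.15, 17.7 ± 2.36, 22.8 ± 3.44 and 21.2 ± 1.58 at 40, 50, 60 and 80 days, so that 60 ranked above 80 days and the mean of 50 days was again the lowest.

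**Figure D1:**
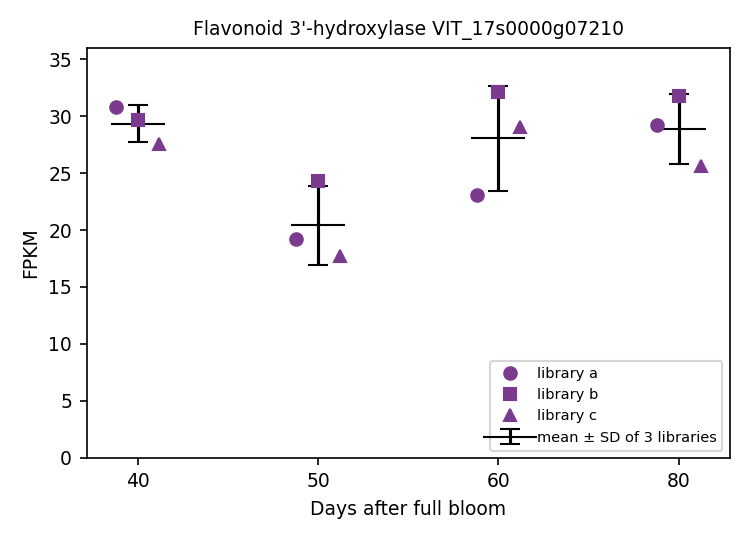
FPKM of the flavonoid 3'-hydroxylase VIT_17s0000g07210 (vertical axis, from 0) by days after full bloom (horizontal axis). Points are the libraries a, b and c, and the bars are the mean ± SD of 3 libraries. The 50-day libraries, at 17.7 to 24.3 FPKM, lie below all libraries of 40 and 80 days.

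Changes with age were tested with limma on log2(FPKM + 1), where 1 is the pseudocount, in 1 fit of all tested genes. A gene was called when its Benjamini-Hochberg adjusted p was under 0.05 and it differed by 1 or more on the log2 scale. VIT_17s0000g07210 was the 1 member that passed the filter on low values, and it was called in none of the comparisons. From 40 to 50 days its mean FPKM was 0.697 times as high, a difference of -0.51 ± 0.14 (SE) on the log2 scale with a limma adjusted p of 0.013 (unadjusted 0.00401). This passed the p threshold but not the minimum difference, and its 95% interval ran from -0.82 to -0.20. From 40 to 50 days 6429 of the 14743 tested genes passed the p threshold, and 11.9% of all tested genes were called. The difference was still negative without any single library, but without library c at 50 days it was -0.42 with a limma adjusted p of 0.0531 (0.00606 to 0.0531 over the alternatives run).

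From 50 to 60 days the mean FPKM of VIT_17s0000g07210 was 1.37 times as high (0.44 ± 0.14 SE on the log2 scale, 95% interval 0.13 to 0.75). The limma adjusted p was 0.0509 (unadjusted 0.00995), so neither threshold was met. Over the alternatives run, the limma adjusted p lay between 0.0211 without library a at 60 days and 0.186 without library b at 60 days, and was 0.0371 with median-of-ratios scaling. Of all tested genes, 4.32% were called from 50 to 60 days. From 60 to 80 days the log2 difference was 0.05 ± 0.14 SE (95% interval -0.27 to 0.36, limma adjusted p = 0.829), where 9.48% of all tested genes were called. Between the youngest and the oldest fruit, 40 and 80 days, it was -0.03 ± 0.14 SE (95% interval -0.34 to 0.29, limma adjusted p = 0.886), where 23.1% of all tested genes were called. Of the tested genes, 3.18% had a smaller absolute difference between these 2 ages. The sign of so small a difference depended on the scaling: it was 0.09 with median-of-ratios scaling, and -0.29 (limma adjusted p = 0.0836) after scaling every library to a sum of 1000000, which put the median tested gene at -0.35 against -0.11 on the deposited values. Relative to the median gene, VIT_17s0000g07210 was at 0.09, 0.10 and 0.06 on the log2 scale from 40 to 80 days with the deposited, the median-of-ratios and the summed scaling.

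Over the 4 ages together, the moderated F test of limma gave VIT_17s0000g07210 an adjusted p of 0.0195 (unadjusted 0.0123). The range of its 4 age means was 0.51 on the log2 scale, under the minimum of 1, and 30.6% of all tested genes were called. The p threshold alone was passed by 10776 of the 14743 tested genes. The median range over all tested genes was 0.70, and 32.3% of them had a smaller range. Among the 4636 tested genes whose mean FPKM lay within a factor of 2 of its own, the median range was 0.64, and 36.99% had a smaller one. The 3'-hydroxylase thus varied somewhat less with age than the median gene of its level. In bulk fruit, fewer cells of a type and less RNA per cell cannot be told apart. The F test no longer passed without library a or c at 50 days (limma adjusted p = 0.0802 and 0.102, against 0.00789 to 0.0376 in the other alternatives).

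**Figure D2:**
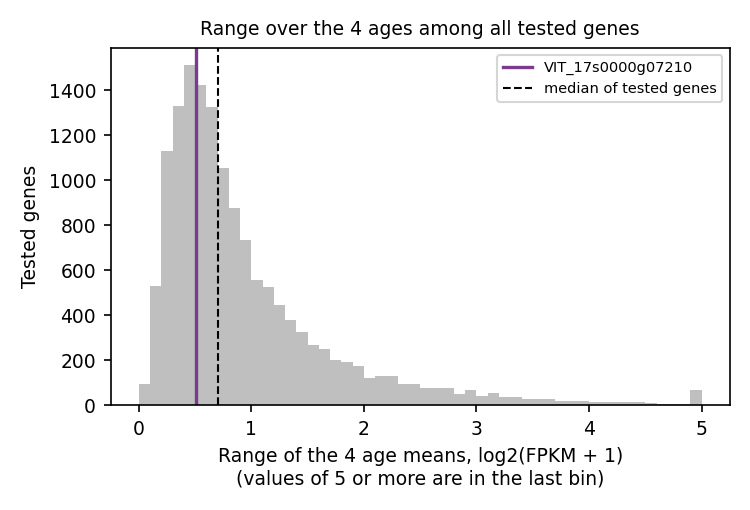
Number of tested genes (vertical axis) by the range of their 4 age means in log2(FPKM + 1) (horizontal axis). The solid line marks the 3'-hydroxylase VIT_17s0000g07210 at 0.51 and the dashed line the median of the 14743 tested genes at 0.70.

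The tested genes with the pattern most like that of VIT_17s0000g07210 were VIT_05s0062g00210 and VIT_12s0121g00010, by Pearson's r of log2(FPKM + 1) over the 12 libraries (0.889 and 0.886). Both r values are the highest among all tested genes and describe these libraries only, since the genes share each library's depth and scaling. VIT_05s0062g00210 had mean FPKM of 168 ± 4.41, 120 ± 12.6, 168 ± 6.15 and 162 ± 17.7 at 40, 50, 60 and 80 days (SD, n = 3). VIT_12s0121g00010 had 16.3 ± 1.75, 9.28 ± 1.83, 15.03 ± 2.07 and 18.5 ± 1.68 FPKM at the same ages. Both had their lowest mean at 50 days, as the 3'-hydroxylase did, which is likely for genes chosen by their r with it in these same libraries. No source used here annotates either ID.

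The 3'5'-hydroxylase array fell into 2 sets of 4 IDs. VIT_06s0009g02860, VIT_06s0009g02880, VIT_06s0009g02910 and VIT_06s0009g02970 were listed at 0 in all 12 libraries, which held for 8.60% of all IDs in the table. The other 4 had traces in 2 to 5 libraries each. In all, 8 of 8 IDs were under 1 FPKM in every library, against 30.2% of all IDs. A value of exactly 0 may also be an estimate that failed. In 26 of the 270960 values of the table, an ID was listed at 0 while the other 2 libraries of its age were at 5 FPKM or more. Members of a tandem array can share reads, and how shared reads were assigned is not given in the sources used here. Both the split of these traces among the IDs and the level of the array are therefore uncertain.

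VIT_06s0009g02830 held the highest trace. It was at 0.158, 0.556 and 0 FPKM in libraries a, b and c at 40 days. Later it was listed above 0 only in library a at 50 days (0.0477 FPKM) and in libraries a and c at 60 days (0.0716 and 0.0772 FPKM), and at 80 days it was at 0 in all 3 libraries. Of the IDs listed above 0 in library b at 40 days, 18.0% were below its 0.556 FPKM, so this highest value of the array was still in the low end of that library.

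VIT_06s0009g02810 was listed above 0 in libraries a and c at 40 days, at 0.132 and 0.102 FPKM, and at 0 in the other 10. VIT_06s0009g02920 was at 0.124 and 0.0755 FPKM in libraries a and b at 40 days, and likewise at 0 in every later library. VIT_06s0009g02840 was at 0.178 FPKM in library c at 40 days, 0.0327 in library c at 60 days and 0.0274 in library c at 80 days, with 0 in the remaining 9 libraries. Each of the 4 IDs was at 0 in at least 1 library at 40 days, and no 2 of them had the same set of libraries above 0.

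**Figure D3:**
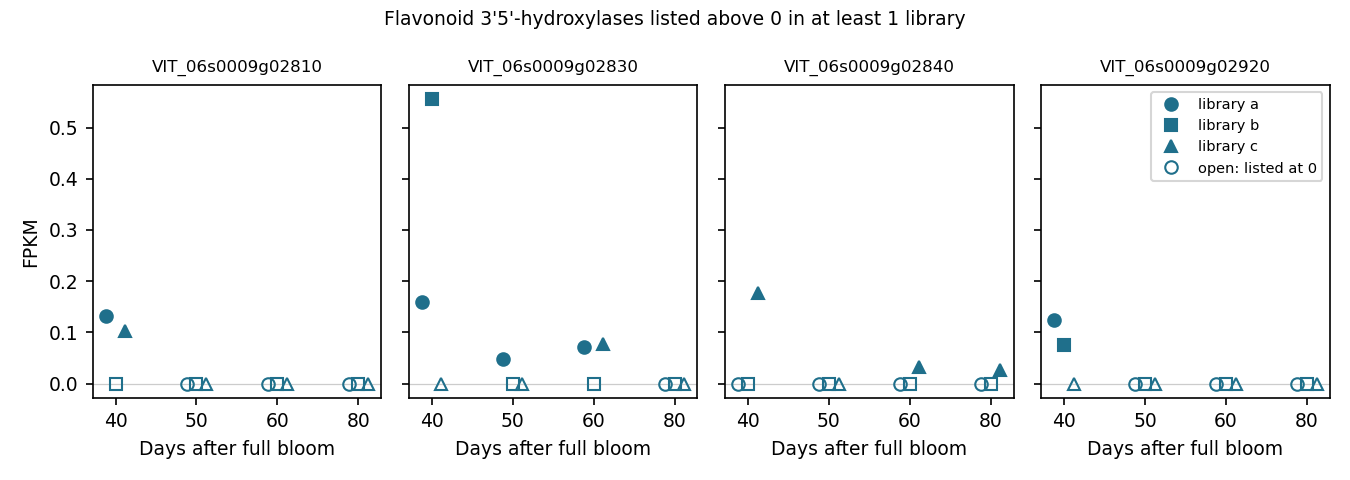
FPKM of the 4 flavonoid 3'5'-hydroxylases listed above 0 in at least 1 library (vertical axis), by days after full bloom (horizontal axis). Points are libraries a, b and c, open where listed at 0. The highest value is 0.556 FPKM in library b at 40 days, and no later value is above 0.0772 FPKM.

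What traces there were lay mostly at 40 days. At that age 7 of the 24 values of the array were above 0, against 5 of 72 at the 3 later ages. All 4 IDs with traces had their highest mean at 40 days. For VIT_06s0009g02810 and VIT_06s0009g02920 this was fixed by the choice, since they were above 0 at that age only. Array members can share reads, so the 4 IDs may not be independent, and counts over them are a description only. Of the 4882 IDs that were above 0 in at least 1 library and under 1 FPKM in every library, 31.3% had their highest mean at that age. In none of the 8 array members did all 3 values at 40 days lie above all later ones, and 4.16% of those 4882 IDs did so. Of the values of these 4882 IDs, 53.5%, 54.8%, 55.0% and 51.8% were above 0 at 40, 50, 60 and 80 days. Over the 4 array members with traces, which are chosen in the same way, 7, 1, 3 and 1 of the 12 values at these ages were above 0, a share of 58.3% at 40 days and of 8.33% at 50 and at 80 days. The share of these 4 members was thus near that of the low IDs at 40 days and below it at the later ages. None of the array passed the filter on low values, and no test was made on these traces in the main fit. When limma was run without a filter, the differences of the 4 IDs from 40 to 80 days were between -0.28 and -0.07 on the log2 scale, with limma adjusted p between 0.0621 and 0.382. From 40 to 50 days the limma adjusted p lay between 0.0817 and 0.341, and in the F test over the 4 ages between 0.112 and 0.604. From 50 to 60 and from 60 to 80 days no limma adjusted p of these IDs was under 0.76.

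Summed over the listed members of the array, the 3'5'-hydroxylases were at 0.415, 0.632 and 0.279 FPKM in libraries a, b and c at 40 days. VIT_06s0009g02830 held 88.1% of the sum in library b. The sum was 0.0477 FPKM in library a at 50 days, 0.0716 and 0.110 FPKM in libraries a and c at 60 days and 0.0274 FPKM in library c at 80 days. In the other 5 later libraries it was 0. The sum in each 40-day library was thus higher than in any later one, although no member alone separated the ages in this way. How often sums of other low IDs do so was not examined.

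The ratio of the 2 classes is taken within a library and so does not depend on the scaling between libraries. At 40 days the 3'5'-hydroxylase sum was 1.35%, 2.13% and 1.01% of the FPKM of the 3'-hydroxylase in libraries a, b and c (mean 1.50% ± 0.572, SD, n = 3). Without VIT_06s0009g02830 the mean at 40 days was 0.701%. Put the other way, the 3'-hydroxylase was 74.2, 47.0 and 98.6 times as high as the sum of the listed array members. At 50 days the ratio was 0.248% in library a and 0 in the others. At 60 days it was 0.310% and 0.379% in libraries a and c and 0 in library b. At 80 days it was 0.107% in library c and 0 in libraries a and b. The ratios of the 40-day libraries did not overlap those of the later ages, and the 50-, 60- and 80-day libraries overlapped each other. As for the sum, this was not set against sums of other low IDs. The numerator is a sum of values near the lower limit of the table, and a score over chosen members was given no test. This sum may also be too low if reads shared between array members were left out, which is not known. Because VIT_17s0000g07200 was not analysed here, the ratio rests on 1 3'-hydroxylase.

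**Figure D4:**
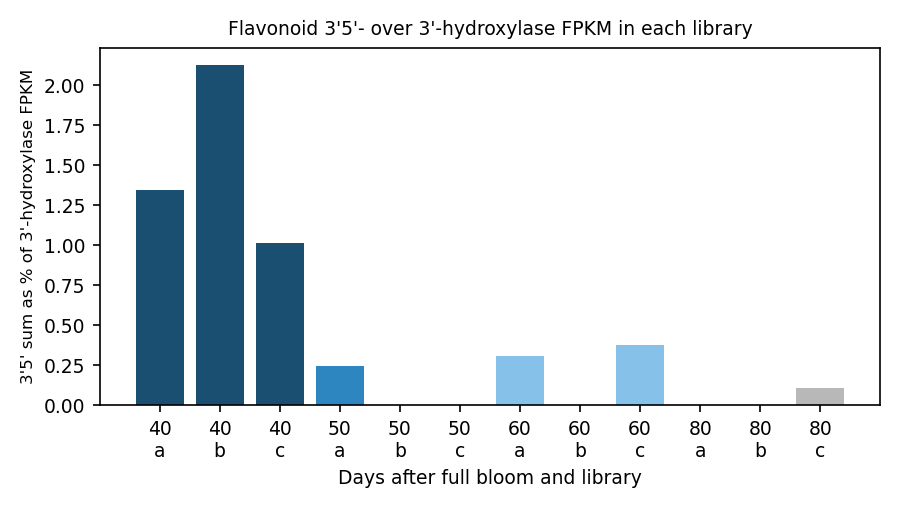
Summed FPKM of the 8 flavonoid 3'5'-hydroxylases as a percentage of the FPKM of the 3'-hydroxylase VIT_17s0000g07210 (vertical axis, from 0) in each of the 12 libraries, by days after full bloom and library letter (horizontal axis). The 40-day libraries lie between 1.01% and 2.13%, and the later ones between 0 and 0.379%.

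Only 2 IDs of the table that are not members have numbers within that of the array, VIT_06s0009g02820 and VIT_06s0009g02850. They too stayed low. VIT_06s0009g02820 was above 0 in 1 library of each age, with its highest value, 0.446 FPKM, in library a at 60 days. VIT_06s0009g02850 was above 0 in 7 of 12 libraries, with its highest values in library c at 60 days (0.742 FPKM) and library b at 40 days (0.673 FPKM). Unlike the 4 array members with traces, VIT_06s0009g02820 had its highest mean at 60 days (0.149 FPKM), and VIT_06s0009g02850 had the same mean at 40 and 60 days to within rounding (0.320 and 0.321 FPKM).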

How the data were processed

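The authors deposited 1 table of FPKM values, 1 column per library. Per the submitters' processing notes, the tools were TopHat2, Cufflinks, edgeR, FastQC and Trimmomatic 0.36, with no roles stated. Not given in the sources used here are the genome build, the annotation, the settings and the handling of reads shared between array members. All 12 columns matched a sample by its label, with 0 left over. None of the deposited IDs (0) matched the RefSeq gene table, so other pathway genes could not be named and no sequence is shown. The members and lists were chosen with earlier results of these data known.

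FPKM values are not counts, so log2(FPKM + 1) was fitted with limma 3.58.1 in R 4.3.3 (intensity trend, 1 mean per age, 8 residual degrees of freedom) over genes of at least 1 FPKM in at least 3 libraries, with Benjamini-Hochberg adjustment over all of them. The fit was also run on simulated data, with larger planted differences than those of VIT_17s0000g07210. That run does not bear on differences as small as those described here. Sums and ratios used Python 3.11.15 and pandas 2.3.3. Precision is limited by 3 libraries per age, and depth is unknown. Genes named were all members, the 2 IDs most correlated with the 3'-hydroxylase, and IDs numbered within the array. The same search for the 3'5'-hydroxylase of the highest mean was left out, since that gene did not pass the filter. Alternatives were pseudocounts of 0.1 and 5, no filter, a filter at 5 FPKM, 2 other scalings, a replicate block, no trend, no minimum difference, 2-age fits and leaving out each library.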

Additional observations from a re-analysis of the deposited data

How the results depend on the processing

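Without a minimum difference, VIT_17s0000g07210 was called from 40 to 50 days (-0.51 on the log2 scale) and over the 4 ages (range 0.51), 1 member in place of 0 each time. At that setting such a call was common: 6429 and 10776 of the 14743 tested genes were called in these comparisons. No other alternative gave a call in any comparison. Its difference from 60 to 80 days changed sign after scaling every library to a sum of 1000000 (-0.093); leaving out 1 library at a time gave -0.084 to 0.15. That from 40 to 80 days changed sign with median-of-ratios scaling (0.093), and leaving out 1 library at a time gave -0.096 to 0.054. The cause was not tested. Its differences from 40 to 50 and from 50 to 60 days kept their sign in all 22 alternatives. Libraries of the same letter showed little shared deviation from the age means (4 of 18 same-letter pairs had a correlation over 0.1, median -0.01). Whether the letters pair the samples by design is not known. A replicate block gave -0.51 from 40 to 50 days and 0.44 from 50 to 60 days, with limma adjusted p of 0.00806 and 0.0358, and changed no call.

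Called genes over the whole table moved with a pseudocount of 5 (899, 299, 735 and 2011 for 40 to 50, 50 to 60, 60 to 80 and 40 to 80 days, and 2621 over the 4 ages, in place of 1750, 637, 1398, 3411 and 4507). With no minimum difference they were 6429, 2852, 5137, 8870 and 10776. Without VIT_06s0009g02830, the 3'5'-hydroxylase of the highest mean, the ratio at 40 days was 0.701%. Restricted to members past the filter it was 0 at all 4 ages, since no 3'5'-hydroxylase passed. Levels below about 1 FPKM cannot be read as absence, because the depth is unknown.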
